A study of Mus musculus with 3 samples.

Results

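The 51 genes described here encode actin itself and the proteins that assemble, cap, cut, bundle, contract and anchor actin filaments, with the small GTPase switches that direct them. They were chosen by gene symbol from 55535 annotated mouse genes, and all 51 were found in the tables. Total RNA of the cytosol of bone-marrow-derived macrophages was depleted of ribosomal RNA and sequenced. These macrophages are primary cells grown out of marrow precursors in culture. All cells came from mice of strain C57BL/6J whose sex and age were not recorded. Every culture had received 100 ng/ml of Lipid A (the part of bacterial endotoxin that activates Toll-like receptor 4) for 12 h. A washout of 12 h and a second exposure to 100 ng/ml for 30 min followed. These libraries form 1 group of 3 biological replicates, so no exposure or fraction could be compared with another. All 3 carry the same donor entry, and the spread between them may therefore be technical.

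Macrophages crawl, spread and engulf particles by building branched actin networks against the plasma membrane. In such a network, nucleation-promoting factors activate the Arp2/3 complex, capping protein stops filament growth, and cofilin with its partners takes old filaments apart. Profilin and the thymosins hold the released monomers, while myosin II pulls on filaments and talin and vinculin tie them to adhesions.

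RNA of all 51 genes was present in every library. Levels are given in TPM (a count divided by transcript length and scaled to the same total in each library), as mean ± SD over 3 libraries, unless a sentence gives the values of replicates 1, 2 and 3 in that order. At least 1 TPM in every library was found for 51 of the 51 genes, beside 41.2% of 22014 nuclear protein-coding genes. At least 100 TPM in every library was found for 28 of them, beside 1.72% of nuclear protein-coding genes and 4.18% of the 9067 that passed 1 TPM. The 51 genes held 5.11%, 5.64% and 5.81% of all nuclear protein-coding TPM. Within a library, their median log2(TPM + 1) exceeded that of the 9016 other nuclear protein-coding genes that passed 1 TPM by 3.76 ± 0.03 (SD), a 13.6-fold difference. Of the TPM of all annotated genes, RNAs that are not messengers included, they held 1.61%. The count of 28 was 43 when TPM was rescaled to nuclear protein-coding genes. It was 8 in the authors' second table, a separate quantification in which the median gene stood 1.91-fold lower, and the cause of that shift was not tested.

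**Figure D1:**
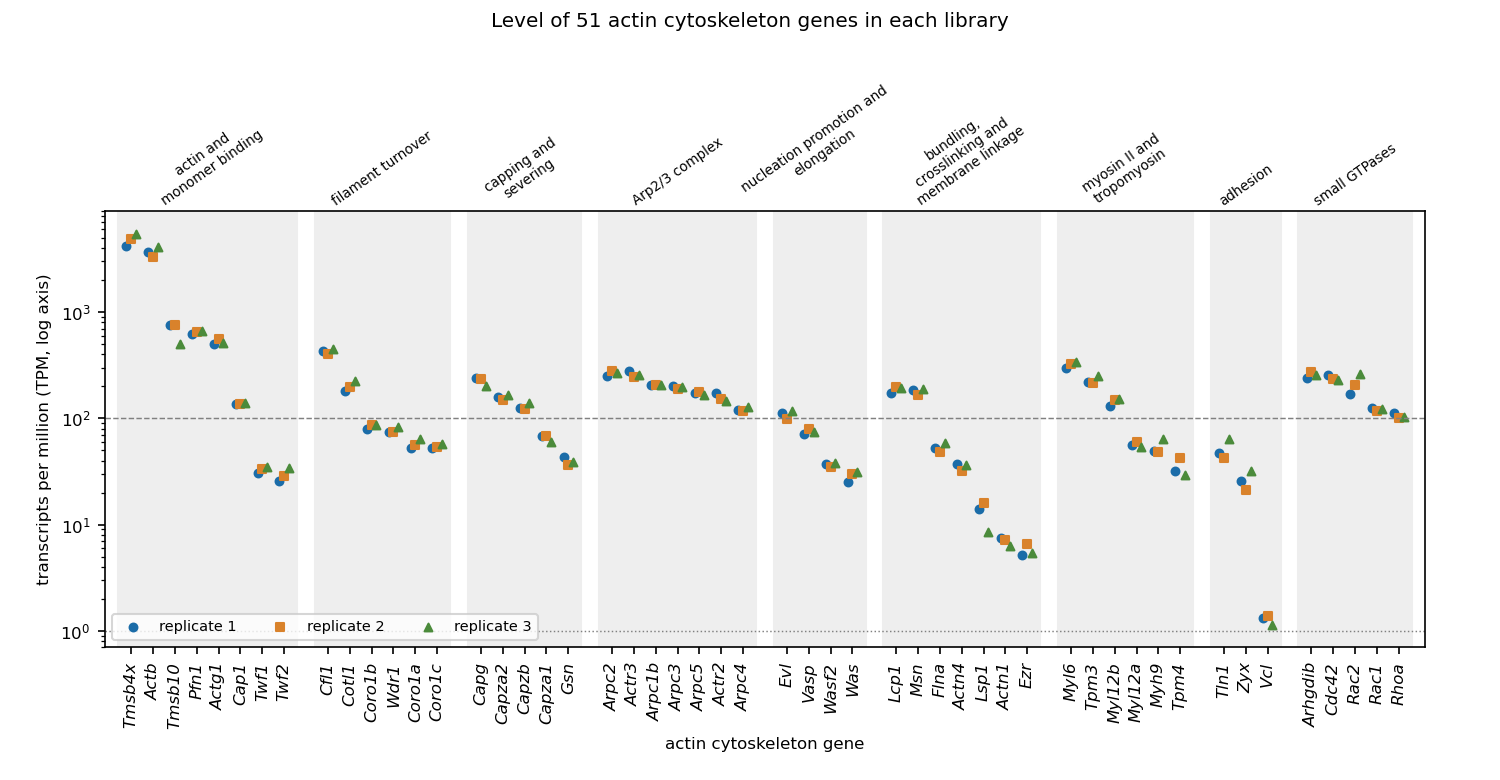
Level in TPM (log axis) of each of the 51 actin cytoskeleton genes in replicates 1 (circles), 2 (squares) and 3 (triangles), grouped by role and ordered by mean within a role. The dashed line marks 100 TPM and the dotted line 1 TPM; Tmsb4x and Actb stand highest and Vcl lowest.

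The marker genes fitted the macrophage label. All 12 macrophage markers passed 1 TPM in every library, with a summed level of 7615 to 8783 TPM, while 4 of 49 markers of other blood, stromal and muscle cells did so. Those 4 were the platelet chemokine Pf4 at 117, 85.7 and 70.2 TPM, the neutrophil proteins S100a8 and S100a9 at 3.53 ± 0.23 and 4.61 ± 1.36 TPM, and the B cell receptor subunit Cd79b at 1.53 ± 0.36 TPM. None of the 9 muscle markers did. Their summed level was 0.53 to 0.80 TPM, and the skeletal, cardiac and enteric actins Acta1, Actc1 and Actg2 had no count in any library. In bulk RNA such as this, fewer cells of a type and less RNA per cell cannot be told apart.

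Most of the actin RNA was cytoplasmic beta-actin. Actb had 3699, 3282 and 4128 TPM and Actg1, the cytoplasmic gamma-actin, had 502, 557 and 506 TPM. Actb thus stood above Actg1 in every library, by 2.82 ± 0.24 on the log2 scale, or 7.07-fold. Actb (mm10 chr5:142903115-142906754, minus strand) ranked 6 by TPM among nuclear protein-coding genes, and Actg1 (chr11:120345690-120348542, minus strand) ranked 56.

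The thymosins, small peptides that sequester actin monomers, showed a gap of like size. Tmsb4x (chrX:167207093-167209315, minus strand) was the highest of the 51 with 4155, 4885 and 5440 TPM, and ranked 3 among nuclear protein-coding genes. Tmsb10 (chr6:72957347-72958748, minus strand) had 762, 761 and 500 TPM. Tmsb4x exceeded Tmsb10 by 2.86 ± 0.52 on the log2 scale, 7.24-fold, and the difference was widest in replicate 3, where Tmsb10 was low and Tmsb4x was high.

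Both pairs are close relatives, so their coding sequences are shown to make visible how far reads can be told apart. These are the GENCODE M21 coding sequences of the most abundant complete coding transcript, 5′ to 3′, and capitals mark the bases that differ between the paired genes. The whole 132 coding bases of each thymosin, without the stop codon, differ at 40 positions.
Tmsb4x: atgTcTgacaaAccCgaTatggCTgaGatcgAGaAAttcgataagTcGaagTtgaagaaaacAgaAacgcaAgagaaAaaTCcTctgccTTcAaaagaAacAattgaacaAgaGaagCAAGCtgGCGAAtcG
Tmsb10: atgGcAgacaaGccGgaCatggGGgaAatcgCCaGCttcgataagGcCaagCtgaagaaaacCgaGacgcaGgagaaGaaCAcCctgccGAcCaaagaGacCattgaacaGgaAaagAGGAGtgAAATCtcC
The first 90 of the 1125 coding bases of the actins differ at 16 positions, among them the acidic codons next to the start that distinguish the isoform proteins.
Actb: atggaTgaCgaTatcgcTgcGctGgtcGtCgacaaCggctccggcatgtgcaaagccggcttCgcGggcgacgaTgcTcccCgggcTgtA
Actg1: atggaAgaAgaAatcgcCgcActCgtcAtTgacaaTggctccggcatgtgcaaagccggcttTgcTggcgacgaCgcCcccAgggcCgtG
Over the whole coding sequence Actb and Actg1 were identical at 88.6% of bases, with 62 bases as the longest run in common, and the thymosins were identical at 69.7%, with 10 bases as the longest run. The deposited table gives a posterior SD of each count, the uncertainty of dividing reads among genes. It was 0.0687% of the count for Actg1 and less for Actb and both thymosins. Pseudogenes are a further kind of near copy. Of the 51 genes, 14 had an annotated pseudogene with at least 95% identity over at least 80% of the shorter sequence, and in 2 of them over 1% of the counts of gene and copies together fell on the copies. These were Capza1 with 1.74% ± 0.12, nearly all on Gm3608, and Actg1 with 1.17% ± 0.23, mostly on Gm12715.

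The other monomer-binding genes fell into a high and a low group. Pfn1 (profilin, which feeds monomers to growing filaments) had 649 ± 21.9 TPM and Cap1 (which recharges monomers with ATP) had 137 ± 2.45 TPM. The twinfilins, which bind monomers and capping protein, were the lowest of this group: Twf1 had 30.8, 33.4 and 35.1 TPM and Twf2 had 26.0, 28.8 and 34.0 TPM. Twf1 was the higher one in each library, but by 0.16 ± 0.10 on the log2 scale, which is less than the 3 SD required here to call a difference between related genes. With 3 libraries the exact two-sided sign-flip test of such a difference cannot go below p = 0.25, which it reached for every pair with the same sign in all libraries.

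Filament turnover was led by cofilin. Cfl1, which severs and depolymerises filaments, had 433, 404 and 446 TPM, and Cotl1 (coactosin, a filament-binding protein of the same fold) had 179, 196 and 226 TPM. Wdr1 (Aip1, which helps cofilin disassemble filaments) had 77.2 ± 4.63 TPM. The coronins, which bind filaments and act with cofilin and Arp2/3, lay close together. Coro1a, the coronin of blood cells, had 52.3, 55.9 and 64.4 TPM, Coro1b had 80.0, 87.0 and 86.1 TPM, and Coro1c had 52.8, 53.9 and 56.9 TPM. Coro1a did not differ from Coro1c by more than 3 SD (log2 difference 0.07 ± 0.10) and was below Coro1b (log2 difference −0.55 ± 0.12). That last call was lost, at −0.28 ± 0.13, when transcripts with an incomplete or no coding sequence were left out.

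Among capping and severing proteins, Capg was highest. Capg, a macrophage capping protein of the gelsolin family, had 240, 234 and 203 TPM, whereas gelsolin itself (Gsn, which severs as well as caps) had 43.1, 36.4 and 38.8 TPM. Capg exceeded Gsn by 2.49 ± 0.15 on the log2 scale, 5.60-fold. Heterodimeric capping protein consists of an alpha and a beta chain. The alpha chains Capza1 and Capza2 together had 228, 217 and 226 TPM, against 124, 123 and 141 TPM for the beta chain Capzb. In these gene totals alpha over beta was 1.74 ± 0.12. Capza1 had 68.9, 67.6 and 59.4 TPM and Capza2 had 160, 150 and 167 TPM. Capza1 was below Capza2 by 1.27 ± 0.18 on the log2 scale in gene totals. On coding transcripts with both ends annotated, Capza1 had 67.8, 65.0 and 58.0 TPM and Capza2 had 140, 131 and 121 TPM. Capzb there had 124, 122 and 140 TPM, so the alpha chains stood less far above it. The difference of Capza1 and Capza2 there was −1.03 ± 0.02, and it was called on each basis.

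The Arp2/3 complex was the most even group. It holds 1 copy of each of 7 subunits, and all 7 genes passed 100 TPM in every library. Arpc2 had 251, 276 and 268 TPM, Actr3 had 279, 245 and 253 TPM, and the lowest subunit, Arpc4, had 120, 118 and 128 TPM. Between them lay Arpc1b with 205 ± 1.11, Arpc3 with 197 ± 6.36, Arpc5 with 172 ± 4.65 and Actr2 with 156 ± 13.7 TPM. Within a library the highest subunit was 2.25 ± 0.14 times the lowest. By mean levels the ratio was 2.17, the smallest of the 9 role groups, next to 2.44 in the small GTPase group and up to 163 in the group of actin and monomer-binding genes. Where a subunit has an alternative isoform, the gene described here was the main one. Arpc1b exceeded Arpc1a (18.8 ± 1.17 TPM) by 10.4-fold, Arpc5 exceeded Arpc5l (17.5 ± 1.62 TPM) by 9.37-fold, and Actr3 exceeded Actr3b (0.277 ± 0.09 TPM) by 204-fold, as folds of TPM + 1 (a log2 difference of 7.67, but 6.68 in the second table and 9.45 with a pseudocount of 0.1).

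Activators and elongators of filaments were lower. Was (WASP, the Arp2/3 activator of blood cells downstream of Cdc42) had 25.3, 29.9 and 31.4 TPM, and Wasf2 (WAVE2, which activates Arp2/3 downstream of Rac) had 37.1, 35.2 and 38.4 TPM. Their log2 difference, Was minus Wasf2, was −0.35 ± 0.16 and was not called. Was did exceed its ubiquitous relative Wasl (3.76 ± 0.13 TPM), 6.25-fold. Vasp and Evl are relatives that protect and lengthen filament ends. Vasp had 72.0, 79.7 and 73.9 TPM and Evl had 112, 98.0 and 116 TPM, a log2 difference of −0.52 ± 0.20 that was not called, and their order depended on the transcripts counted.

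Bundling and crosslinking genes spanned a wide range. Lcp1 (L-plastin, the filament bundler of blood cells) had 173, 195 and 192 TPM, and Msn (moesin, which links filaments to the membrane) had 183, 165 and 189 TPM. Ezr (ezrin, a relative of moesin typical of epithelia) was the lowest with 5.13, 6.62 and 5.38 TPM. Msn exceeded Ezr by 4.75 ± 0.26 on the log2 scale, 26.9-fold, the widest gap among the 14 pairs of related genes within the 51, and it exceeded Rdx (radixin, 17.8 ± 0.43 TPM) 9.58-fold. Flna (filamin A, a flexible crosslinker) had 53.4 ± 5.31 TPM. The non-muscle alpha-actinins, which crosslink filaments, were unequal. Actn1 had 7.43, 7.15 and 6.23 TPM and Actn4 had 37.3, 32.0 and 36.3 TPM, a log2 difference of −2.19 ± 0.17. The difference was −1.58 ± 0.20 on coding transcripts alone and −1.56 ± 0.19 on those with both ends annotated, and it was called on each basis. Lsp1, a filament-binding protein of leukocytes, had 14.1, 16.1 and 8.55 TPM.

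Contractile genes were those of non-muscle myosin II. Myl6, the essential light chain, had 298, 321 and 336 TPM. The heavy chain Myh9 had 48.8, 48.3 and 63.6 TPM, against 0.447 ± 0.16 TPM for Myh10, the other non-muscle heavy chain in the comparison. The regulatory light chains Myl12a and Myl12b, neighbours on chromosome 17, had 56.6, 59.8 and 54.0 TPM and 132, 148 and 152 TPM. Together they stood at 3.80 ± 0.53 times Myh9 in gene totals. On coding transcripts with both ends annotated, Myl12a had 56.1 ± 3.1, Myl12b had 101 ± 3.5 and Myh9 had 52.85 ± 8.4 TPM. The light chains stood less far above Myh9 there. In the assembled myosin each heavy chain carries a regulatory light chain. Myl12a was below Myl12b by 1.32 ± 0.14 on the log2 scale in gene totals. On coding transcripts with both ends annotated the difference was −0.83 ± 0.11, and it was called on each basis. Their coding sequences were identical at 96.5% of bases, the closest of the 14 pairs, and the posterior SD of the count was 1.00% for Myl12a and 0.663% for Myl12b, the highest values of the 51 after that of Vcl. The tropomyosins, which wrap filaments and favour myosin II, also differed. Tpm3 had 218, 217 and 248 TPM and Tpm4 had 32.3, 42.5 and 29.0 TPM. Tpm3 exceeded Tpm4 by 2.70 ± 0.37 on the log2 scale.

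The 3 adhesion genes were the lowest group. In gene totals their median coefficient of variation, 20.2%, was the highest of the groups, although that of Vcl was 9.37%. Tln1 (talin, which activates integrins and binds actin) had 47.6, 42.0 and 63.8 TPM, and Zyx (zyxin, a mechanosensitive adhesion protein) had 25.7, 21.2 and 31.8 TPM. Vcl (vinculin, which reinforces the link from talin to actin) was the lowest of all 51 with 1.31, 1.37 and 1.14 TPM. In Tln1 and Zyx replicate 3 was highest and replicate 2 lowest, and in Vcl replicate 3 was lowest. Transcripts annotated as not coding held 6.85%, 3.64% and 16.3% of the Tln1 TPM. The Vcl level carries a further limit. The gene (chr14:20929398-21033676, plus strand) overlaps Ap3m1 on the other strand over 2090 of its 8191 exon bases, the count of Ap3m1 was 775% of that of Vcl, and no source used here says whether counting used strand. Of the 51 genes, 23 share exon bases with a gene on the other strand. In 9 of the 29 whose locus is overlapped from the other strand that gene held over 5% of their count, with Irak4 at 23.0% of the count of Twf1 and Daglb at 16.4% of the count of Rac1 the next largest.

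In gene totals, all 5 genes of the small GTPase group passed 100 TPM in every library. Rac1 did not pass on its coding transcripts alone, which had 66.6, 61.3 and 61.4 TPM. On coding transcripts with both ends annotated Rhoa also fell just short, with 111, 99.3 and 99.95 TPM. Arhgdib (the inhibitor that keeps these GTPases soluble, typical of blood cells) had 241, 275 and 255 TPM, close to its ubiquitous relative Arhgdia with 222 ± 8.99 TPM, a log2 difference of 0.20 ± 0.07 that was not called. Cdc42 (which drives filopodia through WASP) had 254, 236 and 229 TPM. Rhoa (which drives contraction through myosin II) had 113, 101 and 102 TPM, against 12.3 ± 0.94 TPM for Rhoc and 22.4 ± 1.75 TPM for Rhob. Rac1 and Rac2, which drive branched networks through WAVE, had 125, 117 and 123 TPM and 169, 207 and 263 TPM. Rac1 was below Rac2 in every library, with a log2 difference of −0.78 ± 0.33 that was not called.

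Of the 14 pairs of related genes among the 51, 9 were called. Of the 15 pairs of a described gene with a relative outside the 51, all 15 had the described gene higher and 14 were called, Arhgdib and Arhgdia being the exception. Relatives under 1 TPM were Actr3b, Myh10, Pfn2 (0.687 ± 0.04 TPM, beside Pfn1), Tln2 (0.0467 ± 0.02 TPM, beside Tln1) and Cap2, the relative of Cap1, which had 1, 1 and 0 counts. The pairs were listed by family, yet with earlier results of these data known.

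**Figure D2:**
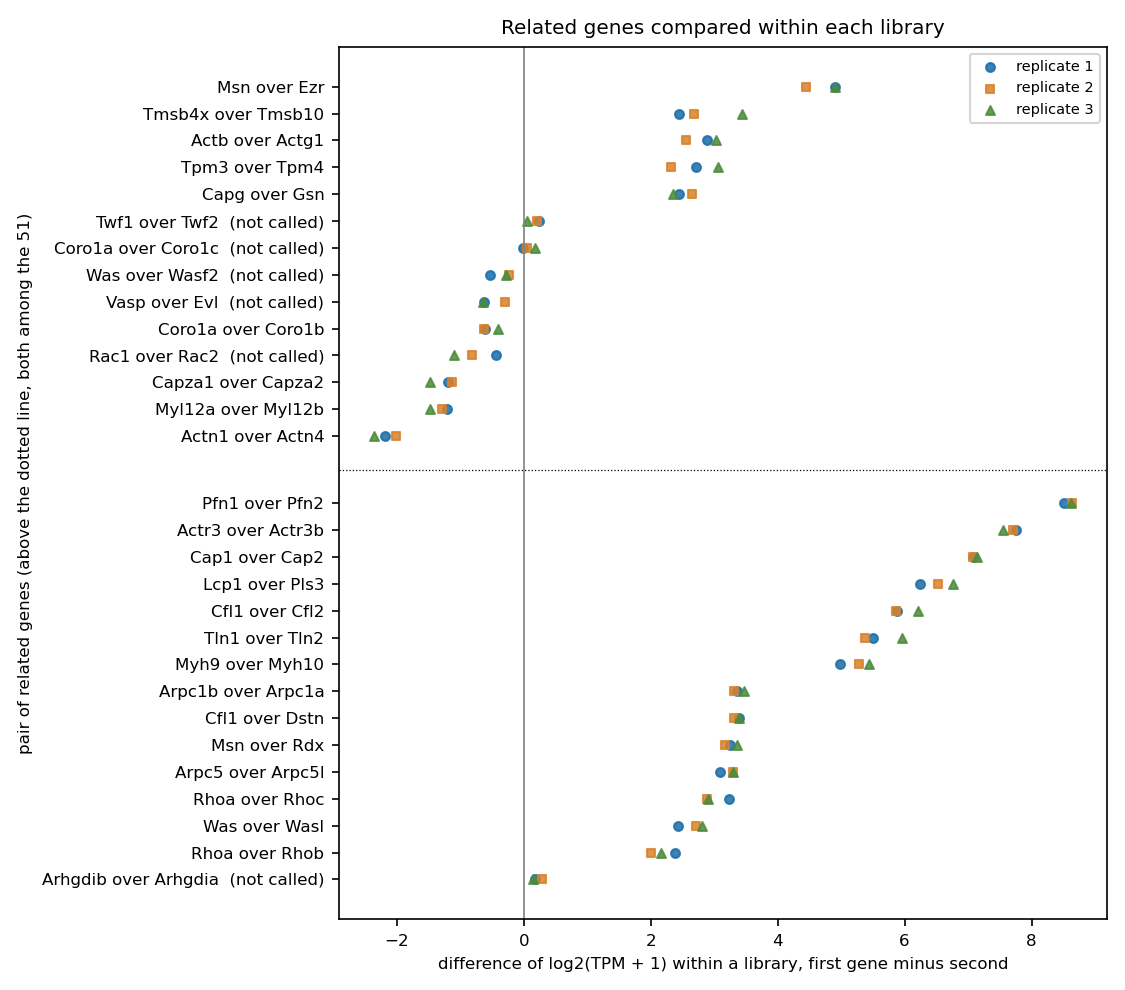
Difference of log2(TPM + 1), first gene minus second, for 14 pairs within the 51 genes (above the dotted line) and 15 pairs with a relative outside them (below it), with 1 symbol per replicate. In all 15 pairs below the line the symbols lie right of 0; pairs that did not exceed 3 SD are marked as not called.

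A gene's TPM is the sum over its annotated transcripts, and for several genes much of it lay on short or incomplete ones. For 32 of the 51 genes a single transcript held at least 90% of the TPM, and for 50 of them the leading transcript was the same in both deposited tables. In 10 genes over 5% of the TPM fell on transcripts annotated as not coding, and in 4 genes over 25%; among detected nuclear protein-coding genes these shares were exceeded in 39.1% and 14.6%. Rac1 was the extreme case. The processed transcript Rac1-204, of 585 bases, held 48.1% ± 1.7 of the Rac1 TPM but 12.5% of its counts, and 51.7% of the TPM in the second table. Actn4 followed with 36.8%, of which the processed transcript Actn4-206 held 36.2%, Myl12b with 29.8% on retained-intron transcripts, and Flna with 27.4%. These shares differed by table. The second table had 15 genes over 5% and 3 over 25%, and 8 genes passed 5% in both. The second table gave Flna 5.45% on transcripts that are not coding, and it gave more than the first for Actn1 (20.5%, against 2.20% in the first), Myh9 (15.6%, against 1.14%) and Arpc1b (12.6%, against 4.0%).

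Short fragments annotated as coding had the same property. Rac2-203, of 254 bases, held 40.2% of the Rac2 TPM and 1.28% of its counts, and Evl-207, of 569 bases, held 43.8% of the Evl TPM and 15.8% of its counts. When only coding transcripts with both ends annotated were summed, a choice made after these fragments were seen, Rac1 had 66.6, 61.3 and 61.4 TPM and Rac2 had 112, 121 and 140 TPM. Rac1 minus Rac2 was then −0.96 ± 0.22 on the log2 scale, and the pair was called. With all coding transcripts kept, fragments included, the difference was −1.71 ± 0.37 and was called too, so its size depended on the restriction. On coding transcripts with both ends annotated, Vasp had 71.5, 79.5 and 72.9 TPM and Evl had 25.7, 22.8 and 31.5 TPM. Vasp then exceeded Evl by 1.46 ± 0.29 in place of the −0.52 ± 0.20 of the gene totals. Vasp minus Evl stayed at −0.52 ± 0.20 when all coding transcripts were kept, incomplete ones included. The direction of this pair was thus set by which transcripts were counted. Of the 51 genes, 35 had under 5% of their TPM outside complete coding transcripts, with a median of 1.78%, and 25 still passed 100 TPM in every library.

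**Figure D3:**
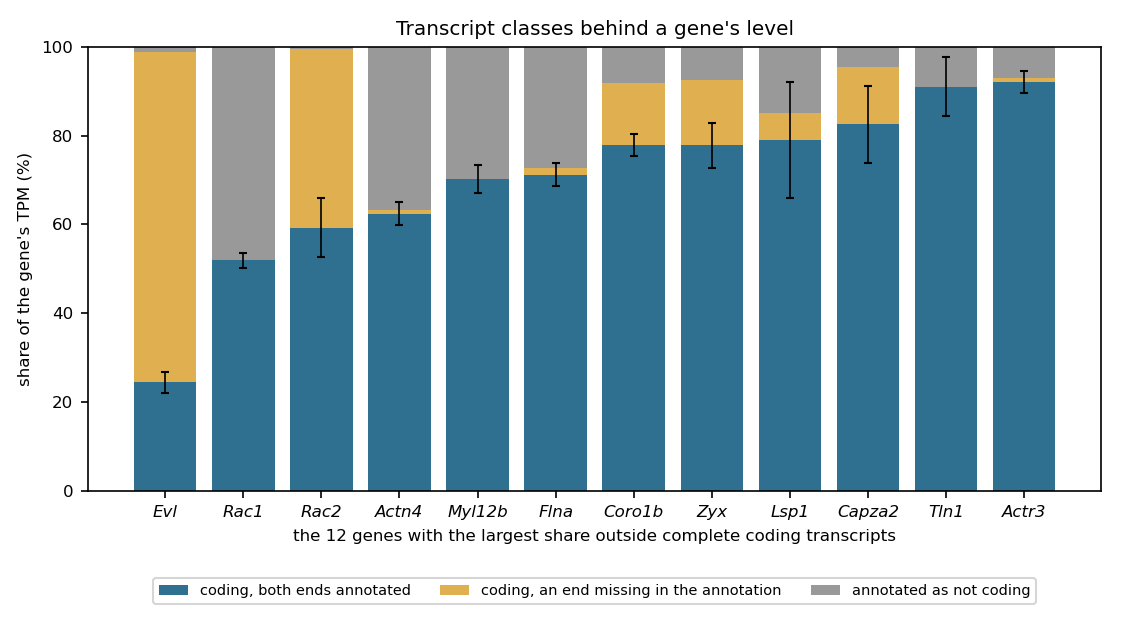
Share of a gene's TPM (%, mean over 3 libraries) on complete coding transcripts (blue), coding transcripts with an end missing in the annotation (yellow) and transcripts annotated as not coding (grey), for the 12 genes with the largest share outside the first class. Error bars are the SD over libraries of the complete coding share; Evl, Rac1 and Rac2 stand at the left.

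Most of these genes were measured with little spread. The coefficient of variation of TPM over libraries was below 10% for 37 of the 51 genes, with a median of 7.28%. Of the 4003 nuclear protein-coding genes with a mean of at least 10 TPM, 55.2% were below 10%, with a median of 9.20%. The sets were not matched on level. Of the 51, 48 averaged at least 10 TPM, and the median of the 51 was 122 TPM. Among the 51, the coefficient of variation in gene totals was smallest for Arpc1b, 0.541%, whose libraries had 206, 205 and 204 TPM. The libraries of Arpc1b were less alike on other measures. Its counts scaled to library size were 601, 600 and 529 CPM. On coding transcripts with both ends annotated it had 199, 199 and 187 TPM. Transcripts annotated as not coding held 2.17%, 2.37% and 7.46% of its TPM. The coefficient of variation in gene totals exceeded 20% for Lsp1, Tmsb10, Rac2, Tln1, Tpm4 and Zyx. On coding transcripts with both ends annotated, the spread relative to the mean was smaller for Rac2, Tln1 and Zyx. Rac2 there had 112, 121 and 140 TPM, Tln1 had 44.32, 40.45 and 53.31 TPM, and Zyx had 21.36, 16.46 and 23.24 TPM. On that basis the relative spread was little changed for Tmsb10 and Tpm4, and larger for Lsp1 (11.58, 14.55 and 5.54 TPM). The spread was also set against counting error alone. A chi-square test of homogeneity of the counts, given library sizes scaled by TMM and with Benjamini-Hochberg adjustment over all 13402 genes tested, called 51 of the 51 genes at an adjusted p below 0.05, beside 66.2% of all genes tested. Of the 50 described genes with 1000 counts or more on average it called all 50, beside 86.1% of all such genes. At such depths a spread of any size between separate libraries tends to exceed counting error, so the calls say little about these genes in particular.

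**Figure D4:**
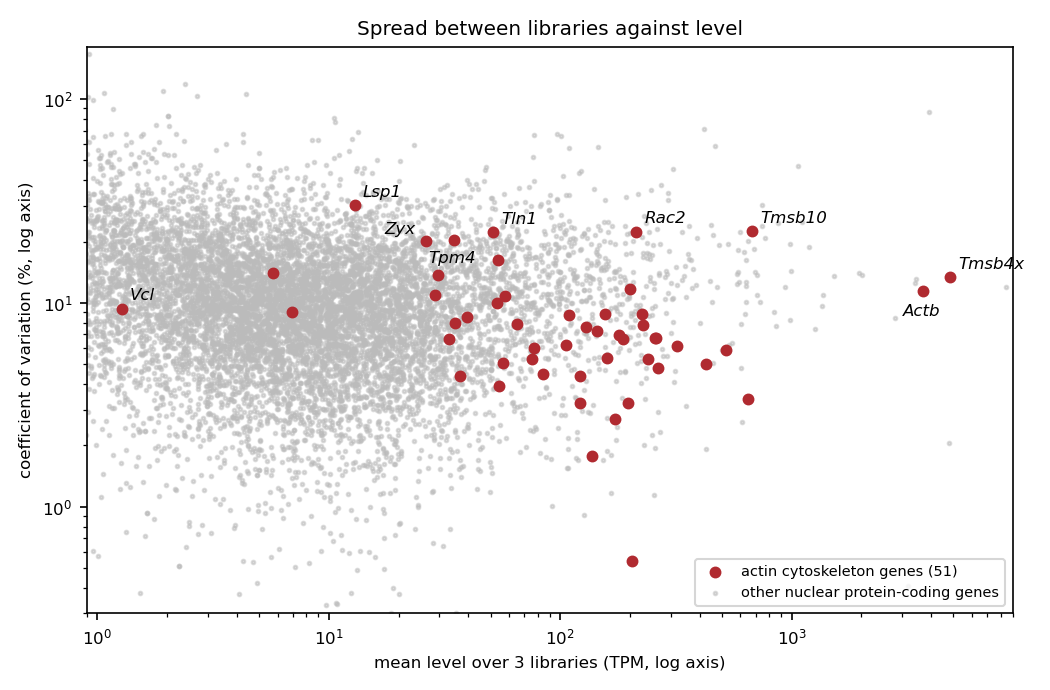
Coefficient of variation over 3 libraries (%, log axis) against mean level (TPM, log axis) for the 51 actin cytoskeleton genes (red) and other nuclear protein-coding genes (grey). Lsp1, at 30.2%, lies highest among the 51.

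Single libraries stood apart in few of these genes. The log2 ratio of a library to the mean of the other libraries had a median over the 51 genes of −0.10 for replicate 1, 0.08 for replicate 2 and 0.01 for replicate 3, beside −0.01, 0.04 and −0.01 over all genes tested. For replicate 1, none of the 51 lay above 0.5, beside 6.94% of all genes, and none below −0.5, beside 6.32%. For replicate 2, Lsp1 (0.82) and Tpm4 (0.57) lay above 0.5, beside 5.63% of all genes, and none below −0.5, beside 9.3%. For replicate 3, none lay above 0.5, beside 9.95% of all genes, and Lsp1 (−1.06) and Tmsb10 (−0.62) lay below −0.5, beside 6.66%. The next largest ratios were those of Ezr in replicate 2 (0.43) and of Tmsb4x in replicate 1 (−0.39).

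Lsp1 (chr7:142460809-142494867, plus strand) was the extreme of the 51. It had 764, 1948 and 735 counts, or 27.0, 35.2 and 14.7 CPM (counts scaled to library size), so replicate 3 lay below both other libraries, and the other libraries differed as well. Tmsb10 had 437, 481 and 298 CPM, with replicate 3 again apart and the other 2 close. Tpm4 had 104, 145 and 93.0 CPM, with replicate 2 apart. Beside these, the 7 platelet markers summed to 70.6 to 118 TPM, nearly all from Pf4, which had a ratio of 0.59 in replicate 1 and −0.52 in replicate 3. Of the 12 macrophage markers, Cd14 had ratios of 0.85 in replicate 2 and −0.57 in replicate 3, and Itgam had −0.84 and 0.70 in those libraries. Mertk (−0.53) and Fcgr1 (−0.51) were also below −0.5 in replicate 2. The 9 neutrophil markers summed to 7.0, 10.4 and 9.21 TPM in replicates 1, 2 and 3, and S100a9 had a ratio of 0.70 in replicate 2 and −0.83 in replicate 1. Markers thus moved in the same libraries, in both directions, and their part in the differences of Lsp1, Tmsb10 and Tpm4 was not tested.

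**Figure D5:**
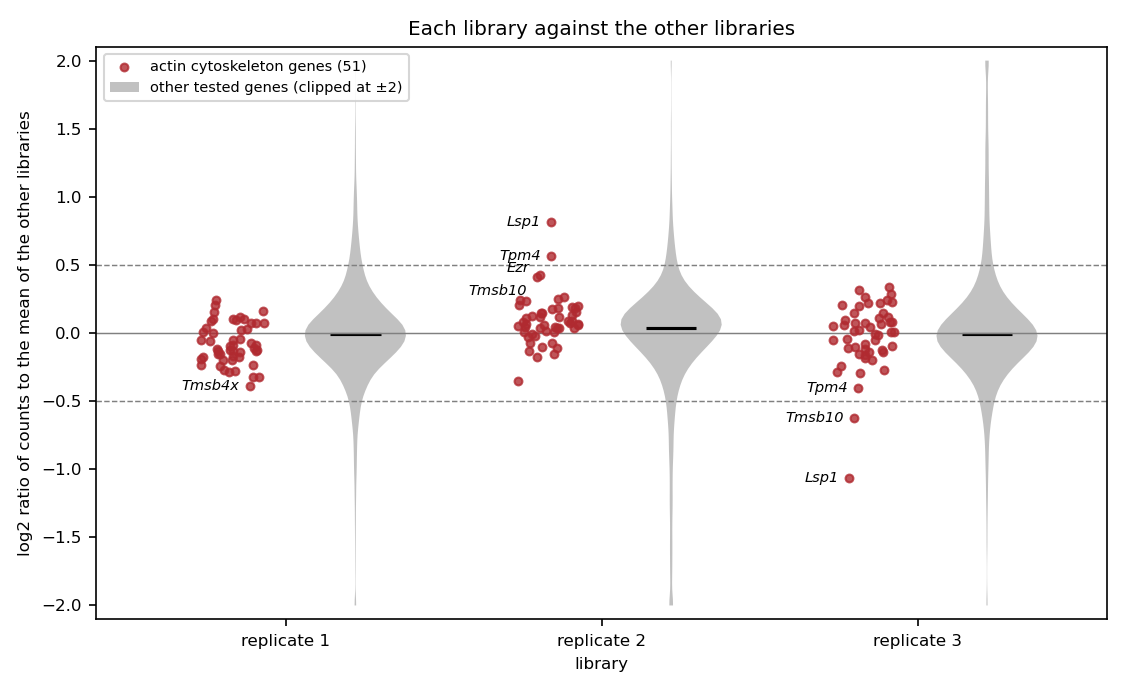
Log2 ratio of each library's scaled counts to the mean of the other libraries, for the 51 actin cytoskeleton genes (red points) and the other genes tested (grey violins, with the median as a bar and values clipped at 2 in either direction). Dashed lines mark 0.5 and −0.5; Lsp1 and Tmsb10 lie below in replicate 3, and Lsp1 and Tpm4 above in replicate 2.

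Other listed genes of actin regulation were lower as a set. Both lists were made with earlier results of these data known, so the gap depends on the choice of genes. Further isoforms of the same families, 33 of the listed genes, had a median of 2.13 TPM. The 51 described genes had a median of 122 TPM. Of 101 listed genes (formins, partners of WAVE and WASP, further isoforms, kinases, phosphatases, exchange factors and other regulators), 75 passed 1 TPM in every library and 5 passed 100 TPM, with a median of 12.3 TPM. Of the 89 tested for homogeneity 74 were called, beside 66.2% of all genes tested and 86.1% of those averaging 1000 counts or more. The 5 highest included Aif1, a bundling protein of macrophages, with 445 ± 56.7 TPM, and Arhgdia. The WAVE subunit Nckap1l had 80.5 ± 7.22 TPM and the Rac exchange factor Vav1 had 70.6 ± 8.94 TPM. Formins, which nucleate unbranched filaments, passed 1 TPM in 6 of 9 cases, with Diaph1 at 16.3 ± 2.1 TPM. Marcksl1, which tethers filaments at the membrane, had 165, 175 and 81.9 TPM, with replicate 3 below the others (log2 ratio −1.09).

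Promoters were searched for the CArG box, the element bound by serum response factor, which is known to control many actin genes. RefSeq promoters (GRCm38.p6, 250 bases before to 50 after a start) were at hand for 44 of the 51 genes. A CArG box, which reads alike on both strands in its fixed bases, was found in 4 of them, or 9.09%, beside 1.81% of the 27025 genes of the table. Actb was not among these 4. Because not all of the 51 had a promoter to search, this does not show that Actb lacks the element. The 4 genes differed widely in level: Actg1 had 521 ± 30.6, Myl6 had 318 ± 19.5, Arpc4 had 122 ± 5.32 and Vcl had 1.27 ± 0.12 TPM. The windows of the highest and the lowest of the 4 are shown for this contrast. Capitals mark the box, which begins 90 bases before the start of Actg1 and 227 bases before that of Vcl.
Actg1, chr11:120348551-120348610, minus strand: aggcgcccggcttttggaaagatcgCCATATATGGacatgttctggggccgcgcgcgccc
Vcl, chr14:20929148-20929205, plus strand: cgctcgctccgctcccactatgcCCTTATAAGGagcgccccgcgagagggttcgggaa
A match describes these letters alone.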

How the data were processed

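The 3 libraries of 1 group held 28759407, 54709008 and 49878183 expected counts in annotated genes for replicates 1, 2 and 3. Per the file headers, the authors deposited expected counts and TPM with a posterior SD of the count (columns laid out as by RSEM), and a second transcript table of estimated counts and TPM (laid out as by kallisto). Build mm10 and annotation GENCODE M21 are stated in the deposited text files. The sources used here give no quantifier, version or strandedness. Rows naming no annotated gene took 0.774%, 0.207% and 0.167% of counts and were left out. The 2 gene identifiers of Myl12b were summed.

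Differences used log2(TPM + 1), which understates those of low genes. They were called when the sign was the same in all libraries and the mean exceeded 3 SD. The chi-square test used rounded counts and the ratios unrounded expected counts, for genes averaging 10 or more. Both were scaled with TMM factors computed over all annotated genes (edgeR 4.0.16, R 4.3.3). Ratios used a prior count of 0.5. Coding sequences were aligned with Biopython 1.88 and copies sought with blastn 2.17.0. Tables were handled in pandas 2.3.3 and numpy 2.4.6 and tests run in scipy 1.17.1, under Python 3.11.15. The chi-square test and the library ratio were tested on simulated counts, scaled there by total counts. The rule for calling pairs, the transcript shares and the sequence searches were not. Alternatives left out each replicate, or changed the table, the pseudocount, the detection limit, the denominator, the threshold, the filter or the scaling (DESeq2 1.42.0 size factors, total counts).

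Named genes are all 51, with each library's value for the 2 highest and the lowest of a role group, described pairs and the 5 largest ratios of 1 library; others were named after their values were seen. A listed gene and its pair are not reported here and were left out of the counts. The genes and lists were chosen with earlier results of these data known.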

Additional observations from a re-analysis of the deposited data

How the results depend on the processing

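No paired analysis was possible because the labels give 1 group. The number of the 51 genes above 100 TPM was 28, with 28 to 29 when a replicate was left out, 8 in the second table and 43 after rescaling to nuclear protein-coding genes. Their share of TPM was 5.52% (5.38% to 5.73% without a replicate), and 1.61% with all annotated genes in the denominator. With a ratio threshold of 1 in place of 0.5, 0 genes in replicate 2 and 1 gene in replicate 3 passed, against 2 in each. The number of genes past 1 TPM was 51 in each omission and 50 in the second table. Their median difference to other genes was 3.76 to 3.79 without a replicate, 3.31 in the second table, 3.28 with means, 3.90 with a pseudocount of 0.1 and 6.77 with no filter on the other genes. Of the 29 pairs 23 were called, 25 without any one replicate, 26 in the second table and 24 under either restriction to coding transcripts. Pairs moved by over 1.5 times numbered 6 in the second table and with a pseudocount of 0.1 (all with a relative outside the 51), and 3 under each restriction to coding transcripts. Chi-square calls were 43, 45 and 41 of 51 without replicates 1, 2 and 3, beside 53.3%, 44.4% and 43.7% of all genes. Vasp over Evl was called reversed, at 1.46, on complete coding transcripts, where the construction of the alternative removed most of Evl. Coro1a and Coro1b lost their call there. With a replicate left out the SD rests on 2 libraries, so calls made there are not comparable with those from 3. Some pairs that were not called passed 3 SD elsewhere. Without replicate 1 these were Was minus Wasf2 (−0.26) and Rac1 minus Rac2 (−0.96), without replicate 2 Vasp minus Evl (−0.64) and Arhgdib minus Arhgdia (0.16), and without replicate 3 Twf1 minus Twf2 (0.22) and Arhgdib minus Arhgdia (0.23). In the second table they were Was minus Wasf2 (−0.48), Rac1 minus Rac2 (−1.01) and Arhgdib minus Arhgdia (0.30). The median ratio of replicate 3 was −0.06 against replicate 2 alone and 0.09 against replicate 1 alone. Precision is lowest for Vcl and Lsp1, which had the fewest counts, and for replicate 1, the shallowest library.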
